A study of Drosophila melanogaster with 12 samples.

Results

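The proteasome subunit genes of Drosophila melanogaster were described across RNA samples from adult heads on Affymetrix oligonucleotide arrays. Members were the genes whose probe set carried a single symbol on the array's annotation beginning with Prosalpha, Prosbeta, or Rpn or Rpt and a digit. Of 10844 genes with such a probe set, 39 were members. Where a gene had more than 1 probe set, the one with the highest mean Signal stood for it. Signal is the relative hybridisation intensity that the Affymetrix software gives for a probe set on a linear scale. It allows no comparison of the amounts of different genes, because probe sets differ in how strongly they hybridise. Of the 39 members, 26 passed the limit for testing, a mean Signal of at least 128.2, and each of these was above that limit on all 12 arrays. The 13 others were all paralogs whose symbols end in T or R, with or without a number, and none of them was tested.

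The flies came from 3 lines and both sexes. BG02514 and BG02257 are insertion lines, each carrying a P{GT1} gene-trap transposon by the usual naming of such BG stocks, and Canton S B was the wild-type line. Each genotype was represented by 1 line, so a difference between lines belongs to the whole genotype and cannot be assigned to the insertion. All flies were kept together at 25 °C and 70% humidity, the light being on for 12 h a day. They were collected 5 to 7 days after eclosion, and each sample pooled 100 heads. Each of the 6 combinations of line and sex had 2 arrays. Both BG02257 male arrays are labelled as replicate 1. They are called 1a and 1b below and were counted as separate samples, which the labels do not settle. The running numbers in the array titles followed line, so if they mark an order of handling, that order and line cannot be told apart.

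The proteasome is the protease that removes most short-lived, damaged and regulatory proteins of the cytosol and nucleus once they carry a ubiquitin chain. Its core particle is a barrel of stacked rings. The alpha subunits form the outer rings, which gate the entry, and the beta subunits form the inner rings, which hold the proteolytic sites. The regulatory particle caps the barrel. Its base, built around a ring of Rpt ATPases, unfolds the substrate, and its lid, built of Rpn subunits, holds the deubiquitinase Rpn11. Neurons need the proteasome for protein turnover at synapses. The testis of Drosophila uses a set of paralogous subunits, several of which have names ending in T.

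The 26 tested members were 6 alpha subunits (Prosalpha2 to Prosalpha7), 6 beta subunits (Prosbeta2 to Prosbeta7), 4 ATPases of the base (Rpt2 to Rpt5), 3 other base subunits (Rpn1, Rpn2 and Rpn13) and 7 lid subunits (Rpn3, Rpn5, Rpn6, Rpn7, Rpn8, Rpn11 and Rpn12). Prosalpha1, Prosbeta1, Rpt1, Rpt6, Rpn9 and Rpn10 were not analysed here. The genes of the tested members were spread over the genome, with 4 on arm 2L, 7 on 2R, 4 on 3L, 8 on 3R and 3 on the X chromosome (Prosalpha4, Rpt3 and Rpt4). Head markers were present in these samples. All 4 glial markers, all 4 neuronal markers and both photoreceptor markers on the array passed the limit for testing.

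Within groups, most subunit Signals varied less than the median tested probe set. The mean Signals of the tested members lay between the 65th (Rpn2) and the 96th percentile (Prosalpha2) of all probe sets. The tested probe sets set beside them, here and for the intervals below, were not matched in Signal level. The median standard deviation within groups was 0.164 on the log2 scale over the tested members, against 0.276 over all 8380 tested probe sets, and 20 of the 26 members lay below 0.276. The smallest was that of the lid subunit Rpn8 (0.0904) and the largest that of the base scaffold Rpn2 (0.445). The ratio of the highest to the lowest array was 1.22 for Rpn13, a ubiquitin receptor of the base. It was 2.85 for Rpn2 and 2.41 for Prosbeta3, a beta subunit without a proteolytic site of its own, and these were the widest ranges among the tested members.

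**Figure D1:**
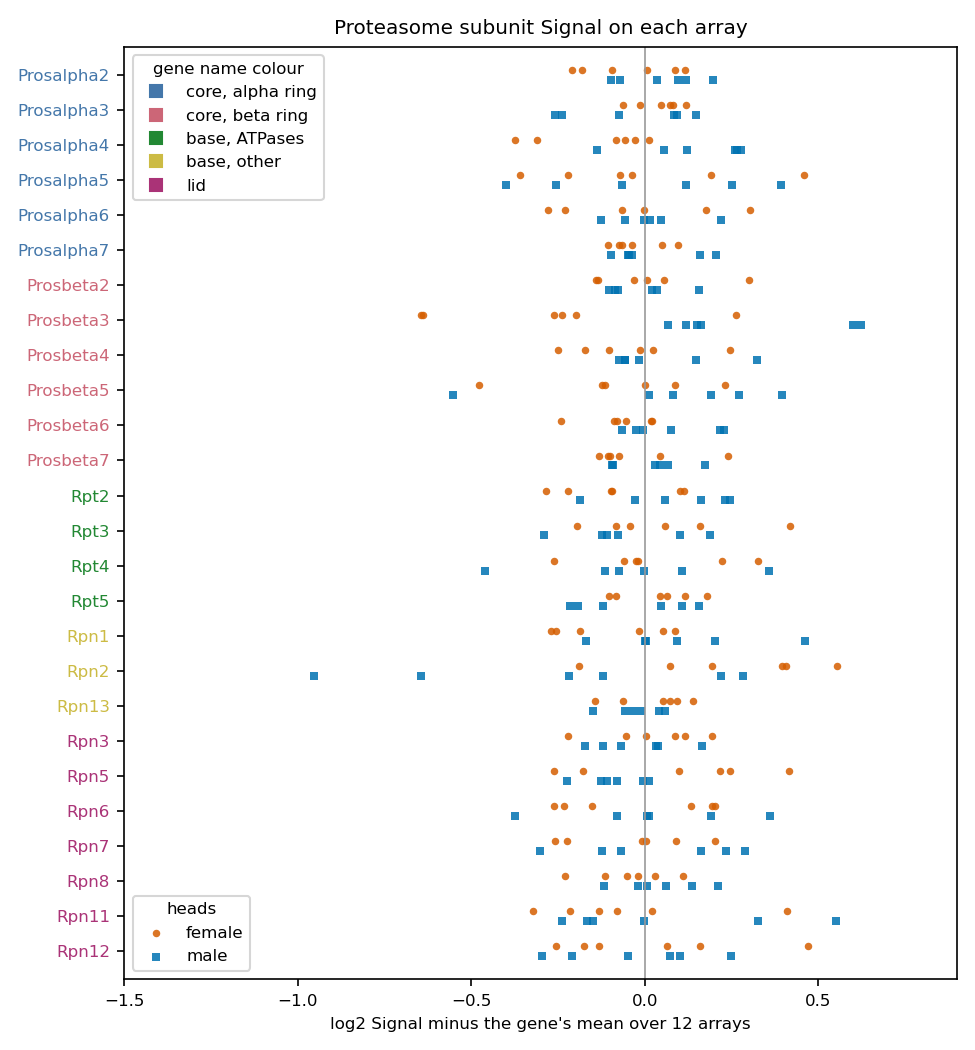
Signal of the 26 tested subunits on each array, as the log2 difference from the gene's own mean over 12 arrays (horizontal axis). Each row is a gene, with female arrays as circles above and male arrays as squares below. The female arrays of Prosbeta3 lie mostly left of its male arrays, and Rpn2 has the widest spread, 2.85-fold between its highest and lowest array.

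No tested subunit differed between female and male heads at an adjusted p under 0.05. The limma fit called 0 of 26 members, while it called 2.84% of all tested probe sets. At an unadjusted p under 0.05 the members counted were 3 (11.5%), Prosbeta3, Prosalpha4 and Rpn2, beside 15.0% of all tested probe sets, and a two-way analysis of variance on the linear Signal also called 0 members. The median log2 difference of females minus males was -0.04 over the members and 0.00 over all tested probe sets. Of the members, 16 of 26 were on the lower side in females. The 12 core subunits had a median of -0.07, with 10 of 12 on the lower side, and the 14 subunits of the regulatory particle a median of 0.04, with 6 of 14 on the lower side. The difference between core and regulatory particle was not tested.

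The intervals limit how large a sex difference these data allow. The 95% interval lay within 1 log2 unit of 0, a 2-fold change either way, for all 26 members, and for 89.5% of all tested probe sets. It lay within 0.5 log2 units for 23 of 26 members (88.5%), against 44.2% of all tested probe sets. The 3 members with wider bounds were Prosbeta3, Prosalpha4 and Rpn2. Leaving out 1 array at a time, the median over the members ranged between -0.10 without Canton S B female 2 and 0.02 without Canton S B female 1. The summed Signal of 7 fat body markers, which the yolk protein genes dominate, was 214748 to 263070 on female and 3106 to 24876 on male arrays. Of these markers, Yp1, Yp2, Yp3 and fit had higher means in females, while Lsp2 averaged 1672 in females and 6711 in males, Fbp1 99.0 and 171, and Fbp2 17.6 and 20.8. The part of these genes in the subunit values was not tested. In RNA of whole heads, fewer cells of a type and less RNA per cell cannot be told apart.

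**Figure D2:**
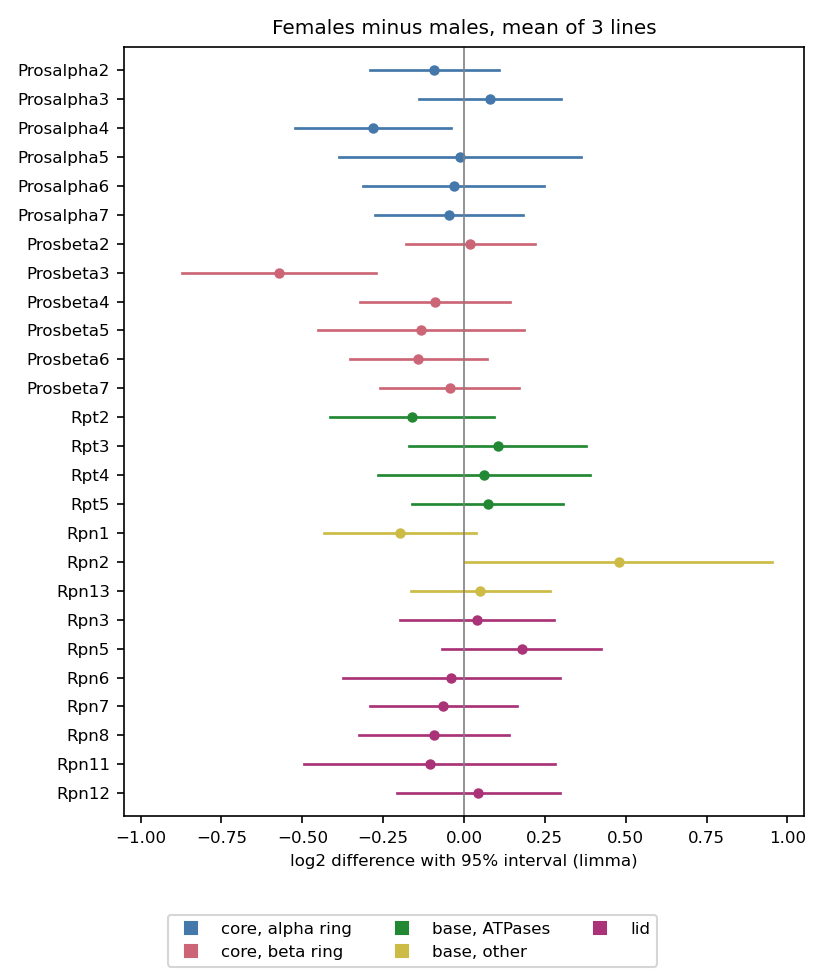
Log2 difference of female minus male heads for the 26 tested subunits, as the mean over 3 lines with its 95% interval from limma (6 arrays of each sex). Colours give the place of the subunit in the proteasome. The interval of Prosbeta3 runs from -0.87 to -0.27, the farthest left of the 26.

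Among the alpha subunits, 5 of 6 were on the lower side in females, with a median of -0.04. Prosalpha4, encoded on the X chromosome, had the largest of these values. Its Signal was measured in female heads (lowest 595, median 734, highest 777) and male heads (lowest 701, median 882, highest 935). The sexes overlapped over all lines. The log2 difference was -0.28 ± 0.11 (SE, n = 6 arrays of each sex, limma adjusted p = 0.253), and by line it was -0.16 in BG02514, -0.47 in BG02257 and -0.21 in Canton S B. The differences of the other 5 alpha subunits lay between -0.09 (Prosalpha2) and 0.08 (Prosalpha3).

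The beta ring held the member nearest to the threshold. Prosbeta3 had Signals in female heads (lowest 944, median 1239.8, highest 1771) and male heads (lowest 1546, median 1644, highest 2269.5). The single female array within the male range was Canton S B female 1, at 1771. Its means were 1238 ± 303 in female and 1823 ± 334 in male heads (SD, n = 6 arrays each). The log2 difference was -0.57 ± 0.14 (SE), with a 95% interval of -0.87 to -0.27 and a limma adjusted p of 0.0504, just above the threshold. By line the difference of Prosbeta3 was -0.80 in BG02514, -0.61 in BG02257 and -0.31 in Canton S B. Its adjusted p passed the threshold under some alternatives. It was 0.0312 without BG02257 male 1b, 0.0414 without Canton S B female 1 and 0.027 without Canton S B male 2, and 0.1 to 0.139 without any 1 of the other 9 arrays. It was 0.0457 when only probe sets above the median Signal were tested, 0.0488 with a pseudocount of 16 and 0.0459 with probe sets averaged by gene.

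The catalytic beta subunits gave smaller differences. Prosbeta5, which carries the chymotrypsin-like site, had Signals in female heads (lowest 1427, median 1914, highest 2337) and male heads (lowest 1356, median 2188, highest 2615). The sexes overlapped widely, and the log2 difference was -0.13 ± 0.14 (SE, n = 6 arrays of each sex, limma adjusted p = 0.733, 95% interval -0.45 to 0.19). Prosbeta2, which carries the trypsin-like site, had Signals in female heads (lowest 2254, median 2461, highest 3058) and male heads (lowest 2312, median 2435, highest 2767). Its ranges overlapped too, and its difference was 0.02 ± 0.09 (SE, limma adjusted p = 0.952, 95% interval -0.18 to 0.22). The remaining beta subunits, Prosbeta4, Prosbeta6 and Prosbeta7, had differences of -0.09, -0.14 and -0.04.

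In the base of the regulatory particle, Rpn2 and Rpn1, the large scaffolds to which other subunits and ubiquitin-binding proteins dock, had differences of opposite sign. Rpn2 had Signals in female heads (lowest 308, median 432, highest 516) and male heads (lowest 181, median 313, highest 428). The lowest arrays of Rpn2 were Canton S B male 1 and BG02514 male 2, at 181 and 225, and the sexes overlapped over all lines. The log2 difference was 0.48 ± 0.22 (SE, n = 6 arrays of each sex, limma adjusted p = 0.33, 95% interval 0.00 to 0.95). Rpn1 had Signals in female heads (lowest 1023, median 1151, highest 1310.1) and male heads (lowest 1097, median 1276, highest 1699). Its ranges overlapped, with a difference of -0.20 ± 0.11 (SE, limma adjusted p = 0.421). Rpt3, an ATPase encoded on the X chromosome, had Signals in female heads (lowest 761, median 877, highest 1166) and male heads (lowest 714, median 817, highest 993). The male range of Rpt3 lay inside the female one apart from its lowest array, and the difference was 0.10 ± 0.12 (SE, limma adjusted p = 0.757). The other ATPases had differences between -0.16 (Rpt2) and 0.07 (Rpt5).

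In the lid, 4 of 7 subunits were on the lower side in females, and the median was -0.04. Rpn5, a scaffold subunit of the lid, had the highest difference. Its Signals were measured in female heads (lowest 1729, median 2312, highest 2764) and male heads (lowest 1773, median 1941, highest 2089.7), and the ranges overlapped. The log2 difference was 0.18 ± 0.11 (SE, n = 6 arrays of each sex, limma adjusted p = 0.497). Rpn11, the deubiquitinase that cuts ubiquitin chains off the substrate, had a difference of -0.11, the lowest in the lid.

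The question of whether the sex difference depended on line was tested with limma's moderated F test. It called 0 of 26 members and 0% of all tested probe sets. No member had an unadjusted p under 0.05 in this test, against 2.80% of all tested probe sets (235 of 8380), and the two-way analysis of variance called 0 members. The smallest unadjusted p of a member was 0.0933, for the lid subunit Rpn12. Its log2 difference of females minus males was -0.07 in BG02514, -0.23 in BG02257 and 0.43 in Canton S B.

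Between lines, no tested subunit passed the threshold either, and most subunits were on the lower side in BG02514. The limma fit of BG02514 against Canton S B called 0 of 26 members, beside 0.179% of all tested probe sets. At an unadjusted p under 0.05 it counted 2 members (7.69%), Prosbeta3 and Rpn7, beside 8.02% of all tested probe sets, and the two-way analysis of variance called 0. The median log2 difference was -0.15 over the members, with 21 of 26 on the lower side, and -0.01 over all tested probe sets, with 52.6% on the lower side. The core particle had a median of -0.20 and the regulatory particle one of -0.08. All 6 beta subunits and all 4 ATPases were on the lower side in BG02514. Leaving out 1 array at a time, the median over the members lay between -0.17 without BG02514 male 2 and -0.09 without Canton S B female 2, where 15 of 26 were on the lower side. The 95% interval lay within 1 log2 unit of 0 for all 26 members, and within 0.5 log2 units for 17 (65.4%), against 31.3% of all tested probe sets.

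BG02257 lay closer to Canton S B. The limma fit called 0 of 26 members, beside 0.0955% of all tested probe sets, and 0 members had an unadjusted p under 0.05, beside 4.01% of all tested probe sets. The two-way analysis of variance called 0. The median over the members was -0.05, with 18 of 26 on the lower side, and that over all tested probe sets -0.01. The median ranged between -0.08 without BG02257 male 1a and 0.03 without Canton S B female 2. The 95% interval lay within 1 log2 unit of 0 for all 26 members, and within 0.5 for 22 (84.6%), against 35.8% of all tested probe sets. These comparisons share the Canton S B arrays, so a high or low Canton S B array moves both.

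**Figure D3:**
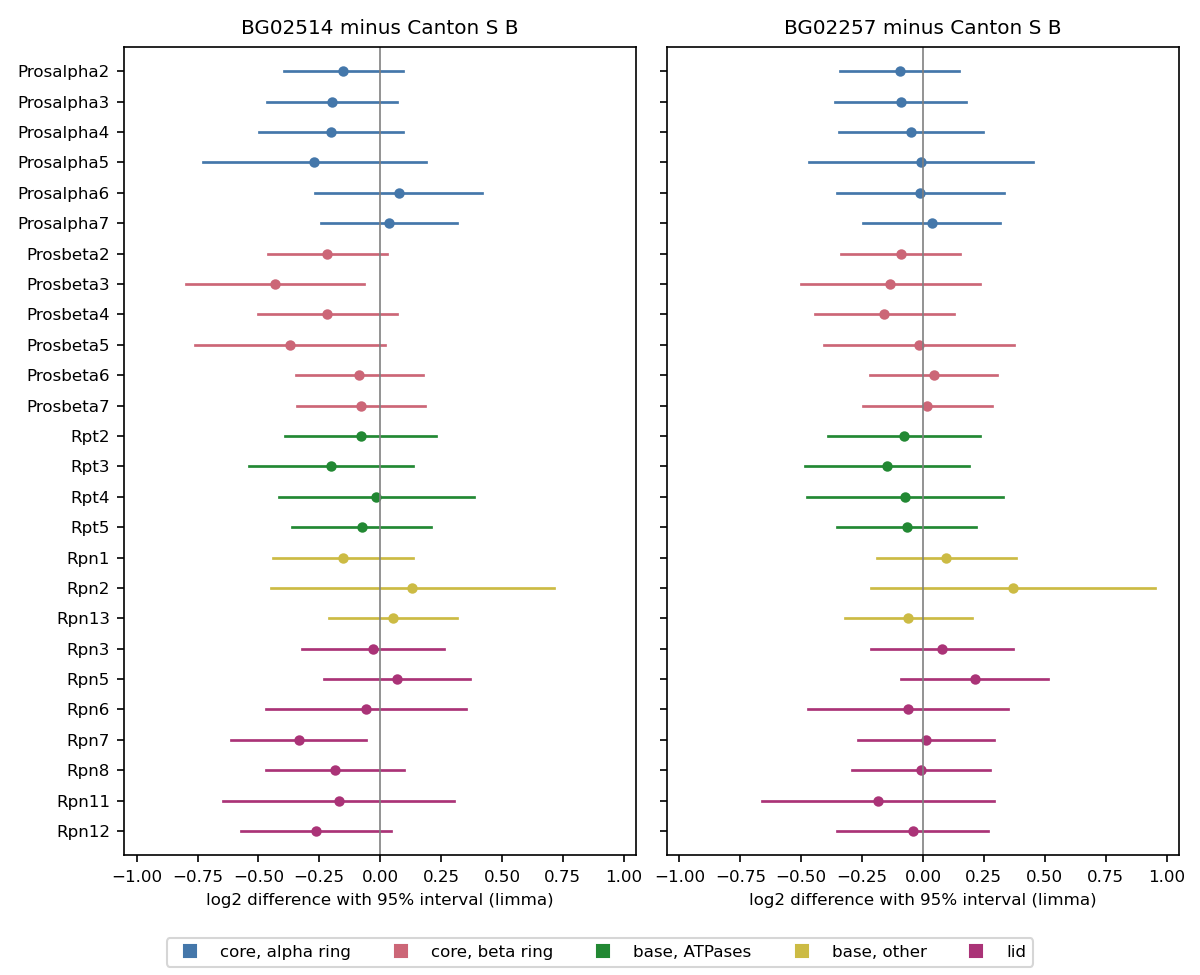
Log2 difference of each insertion line minus Canton S B for the 26 tested subunits, as the mean over both sexes with its 95% interval from limma (4 arrays of each line); BG02514 is on the left and BG02257 on the right. In BG02514, 21 of 26 points lie left of 0, and in BG02257, 18 of 26. Both panels use the same 4 Canton S B arrays.

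The direct comparison of the insertion lines called 0 of 26 members, beside 0.334% of all tested probe sets. It counted 1 member, Rpn7, at an unadjusted p under 0.05 (3.85%), beside 9.99% of all tested probe sets, and the two-way analysis of variance called 0. The median log2 difference of BG02514 minus BG02257 was -0.11 over the members, with 21 of 26 on the lower side, and -0.01 over all tested probe sets. Without BG02257 male 1a it was -0.05, and without BG02257 male 1b it was -0.14. The 95% interval lay within 1 log2 unit of 0 for all 26 members.

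Members among the 3 highest or 3 lowest of any comparison of sexes or lines, and the catalytic subunits, are given array by array. Rpn7 is a scaffold subunit of the lid. The Signals of Rpn7 were 1144 and 1117 in BG02514 female and 1085 and 1226 in BG02514 male heads, 1423 and 1329.5 in BG02257 female and 1573 and 1496 in BG02257 male heads, and 1341 and 1539 in Canton S B female and 1634 and 1275 in Canton S B male heads. All 4 BG02514 arrays lay below all 8 arrays of the other lines. Against Canton S B the log2 difference was -0.33 ± 0.13 (SE, n = 4 arrays of each line, limma adjusted p = 0.499), and against BG02257 it was -0.35 ± 0.13 (SE, limma adjusted p = 0.38). BG02257 minus Canton S B was 0.01 with a 95% interval of -0.27 to 0.29. The arrays of BG02514 and Canton S B did not overlap for 3 of 26 tested members, Rpn7, Prosbeta2 and Prosalpha3, beside 4.8% of all tested probe sets. Those of BG02514 and BG02257 did not overlap for 1 tested member, Rpn7, beside 5.69%. No tested member was free of overlap between BG02257 and Canton S B, beside 2.2%, or between females and males over all lines, beside 2.96%.

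The Signals of Prosbeta2 were 2263 and 2254 in BG02514 female and 2352 and 2312 in BG02514 male heads, 2429.9 and 2492 in BG02257 female and 2767 and 2338 in BG02257 male heads, and 2582 and 3058 in Canton S B female and 2543 and 2518 in Canton S B male heads. The BG02514 arrays of this trypsin-like subunit lay close together, all below the lowest Canton S B array. The log2 difference was -0.22 ± 0.11 (SE, n = 4 arrays of each line, limma adjusted p = 0.681). In BG02257 it was -0.09, with a 95% interval of -0.34 to 0.15. The Signals of Prosbeta5 were 1829 and 1427 in BG02514 female and 1356 and 2272 in BG02514 male heads, 1838 and 2113 in BG02257 female and 2615 and 2104 in BG02257 male heads, and 1990.0 and 2337 in Canton S B female and 2008 and 2404 in Canton S B male heads. The lowest arrays of this chymotrypsin-like subunit were BG02514 female 2 and BG02514 male 1, while BG02514 male 2 was within the range of Canton S B. BG02514 minus Canton S B was -0.37 ± 0.18 (SE, limma adjusted p = 0.658) and BG02514 minus BG02257 was -0.35 ± 0.18 (SE, limma adjusted p = 0.575).

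The Signals of Prosbeta3 were 946 and 944 in BG02514 female and 1652 and 1636 in BG02514 male heads, 1229 and 1251 in BG02257 female and 2234 and 1601 in BG02257 male heads, and 1771 and 1286 in Canton S B female and 2269.5 and 1546 in Canton S B male heads. The BG02514 female arrays were the lowest of the 12, and the BG02514 male arrays lay inside the Canton S B range. BG02514 minus Canton S B was -0.43 ± 0.17 (SE, n = 4 arrays of each line, limma adjusted p = 0.506) and BG02257 minus Canton S B was -0.13 ± 0.17 (SE, limma adjusted p = 0.999). The Signals of Prosbeta4 were 2711 and 2581 in BG02514 female and 2877 and 2761 in BG02514 male heads, 2959 and 2445 in BG02257 female and 3223 and 2796 in BG02257 male heads, and 2882 and 3448 in Canton S B female and 3641 and 2798 in Canton S B male heads. Prosbeta4 is a structural subunit of the inner ring. Its arrays overlapped between all lines. BG02257 minus Canton S B was -0.16 ± 0.13 (SE, limma adjusted p = 0.999), among the 3 lowest values of that comparison.

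The Signals of Rpn11 were 418 and 459 in BG02514 female and 609 and 411 in BG02514 male heads, 443 and 493 in BG02257 female and 438 and 485 in BG02257 male heads, and 388 and 646 in Canton S B female and 712 and 433 in Canton S B male heads. High Rpn11 values came from 1 BG02514 array and 1 array of each sex of Canton S B, and the lines overlapped. BG02257 minus Canton S B was -0.18 ± 0.22 (SE, n = 4 arrays of each line, limma adjusted p = 0.999), the lowest of that comparison. The Signals of Rpt3 were 761 and 846 in BG02514 female and 714 and 993 in BG02514 male heads, 822 and 974 in BG02257 female and 826 and 801 in BG02257 male heads, and 908 and 1166 in Canton S B female and 935 and 809 in Canton S B male heads. The highest Rpt3 array was Canton S B female 2, and the lines overlapped. BG02257 minus Canton S B was -0.15 ± 0.15 and BG02514 minus Canton S B was -0.20 ± 0.15 (SE, limma adjusted p = 0.999 and 0.82).

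The base scaffold Rpn2 had the highest value against Canton S B in both insertion lines. The lid subunit Rpn5 was the next highest in BG02257 and the third in BG02514. The Signals of Rpn2 were 369.8 and 516 in BG02514 female and 323 and 225 in BG02514 male heads, 462 and 466 in BG02257 female and 409 and 302 in BG02257 male heads, and 308 and 402 in Canton S B female and 181 and 428 in Canton S B male heads. The lowest Rpn2 array was Canton S B male 1, and the lines overlapped. BG02514 minus Canton S B was 0.13 ± 0.27 and BG02257 minus Canton S B was 0.37 ± 0.27 (SE, n = 4 arrays of each line, limma adjusted p = 0.939 and 0.999). The Signals of Rpn5 were 2406 and 1830.0 in BG02514 female and 2062 and 1897 in BG02514 male heads, 2454 and 2764 in BG02257 female and 1920.1 and 1962 in BG02257 male heads, and 1729 and 2219 in Canton S B female and 1773 and 2089.7 in Canton S B male heads. The highest Rpn5 arrays were those of BG02257 females and BG02514 female 1. BG02514 minus Canton S B was 0.07 ± 0.14 and BG02257 minus Canton S B was 0.21 ± 0.14 (SE, limma adjusted p = 0.939 and 0.999). Rpn1, the other base scaffold, was among the 3 highest of BG02257 minus Canton S B. The Signals of Rpn1 were 1083 and 1023 in BG02514 female and 1314 and 1097 in BG02514 male heads, 1032 and 1279.7 in BG02257 female and 1419.9 and 1699 in BG02257 male heads, and 1310.1 and 1219 in Canton S B female and 1235 and 1238 in Canton S B male heads. The BG02514 female arrays and BG02257 female 1 were low and both BG02257 male arrays were high. BG02257 minus Canton S B was 0.10 ± 0.13 (SE, limma adjusted p = 0.999).

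The members highest in BG02514 relative to BG02257 were Rpn13, Prosalpha6 and Rpt4. The Signals of Rpn13 were 1107 and 1074 in BG02514 female and 968 and 1036 in BG02514 male heads, 1059 and 911 in BG02257 female and 999 and 907 in BG02257 male heads, and 1043 and 963 in Canton S B female and 1047 and 982 in Canton S B male heads. These arrays lay within a 1.22-fold range. BG02514 minus BG02257 was 0.11 ± 0.12 (SE, n = 4 arrays of each line, limma adjusted p = 0.805). The Signals of Prosalpha6 were 657 and 745 in BG02514 female and 657 and 681 in BG02514 male heads, 562 and 629 in BG02257 female and 768 and 634 in BG02257 male heads, and 544 and 813 in Canton S B female and 665 and 603 in Canton S B male heads. The lines overlapped for this alpha subunit, with a difference of 0.09 ± 0.16 from BG02257 and 0.08 ± 0.16 from Canton S B (SE, limma adjusted p = 0.891 and 0.94). The Signals of Rpt4 were 871 and 1059 in BG02514 female and 660.1 and 1163 in BG02514 male heads, 893 and 758 in BG02257 female and 907 and 979 in BG02257 male heads, and 897 and 1139 in Canton S B female and 839 and 863 in Canton S B male heads. The BG02514 males held both the lowest and the highest Rpt4 array, and BG02514 minus BG02257 was 0.06 ± 0.18 (SE, limma adjusted p = 0.943).

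The Signals of Prosalpha4 were 728 and 622 in BG02514 female and 701 and 802 in BG02514 male heads, 757 and 595 in BG02257 female and 928 and 935 in BG02257 male heads, and 741 and 777 in Canton S B female and 923 and 839.9 in Canton S B male heads. BG02514 minus Canton S B was -0.20 ± 0.13 for this X-linked alpha subunit (SE, n = 4 arrays of each line, limma adjusted p = 0.785), and the lines overlapped. The members not given array by array, Prosalpha2, Prosalpha3, Prosalpha5, Prosalpha7, Prosbeta6, Prosbeta7, Rpt2, Rpt5, Rpn3, Rpn6, Rpn8 and Rpn12, had differences of BG02514 minus Canton S B between -0.27 (Prosalpha5) and 0.04 (Prosalpha7). Their differences of BG02257 minus Canton S B lay between -0.10 (Prosalpha2) and 0.08 (Rpn3).

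The subunits tended to be high or low on the same arrays. Over the 12 arrays the median Pearson correlation between a pair of members was 0.273, with 72.3% of 325 pairs above 0, against 0.0045 and 50.5% for pairs of all tested probe sets. Within the core particle the median was 0.399, within the regulatory particle 0.132, and between them 0.245. These values are descriptions, since the 12 arrays share lines, sexes and one scaling. The members that followed the mean of the other members most closely were Rpn8 (r = 0.873), Prosbeta7 (r = 0.849), Prosbeta2 (r = 0.838), Rpn7 (r = 0.801) and Prosalpha5 (r = 0.794). Rpn13 (r = -0.30), Rpn2 (r = -0.24) and Rpn5 (r = -0.17) ran against it.

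The median log2 deviation of the members from their own means shows which arrays these were. It was -0.10 and -0.08 in BG02514 females, -0.11 and 0.00 in BG02514 males, -0.02 and 0.00 in BG02257 females, and 0.19 and -0.04 in BG02257 males. In Canton S B it was -0.04 and 0.19 in females, and 0.05 and 0.01 in males. BG02257 male 1a and Canton S B female 2 stood highest, and 3 of 4 BG02514 arrays lowest. BG02257 male 1a also stood apart in Yp1, the yolk protein gene, at a Signal of 6747, against 172 to 496 on the other 5 male arrays. The ratio of the GAPDH control's 3′ to 5′ probe sets, which rises as RNA is degraded or copied less fully, was 4.79 on BG02257 male 1a and 3.71 on Canton S B female 2, within a range of 3.70 to 6.16 over all arrays. For the actin control this ratio was 2.86 on BG02257 male 1a and 1.65 on Canton S B female 2, within 1.35 to 3.29 over all arrays. For the eIF-4a control it was 2.91 and 2.04, within 1.96 to 3.12. On BG02514 male 1, which had the lowest subunit median, the GAPDH, actin and eIF-4a ratios were 4.87, 3.22 and 3.02. The part of Yp1 and of these ratios in the subunit values was not tested.

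**Figure D4:**
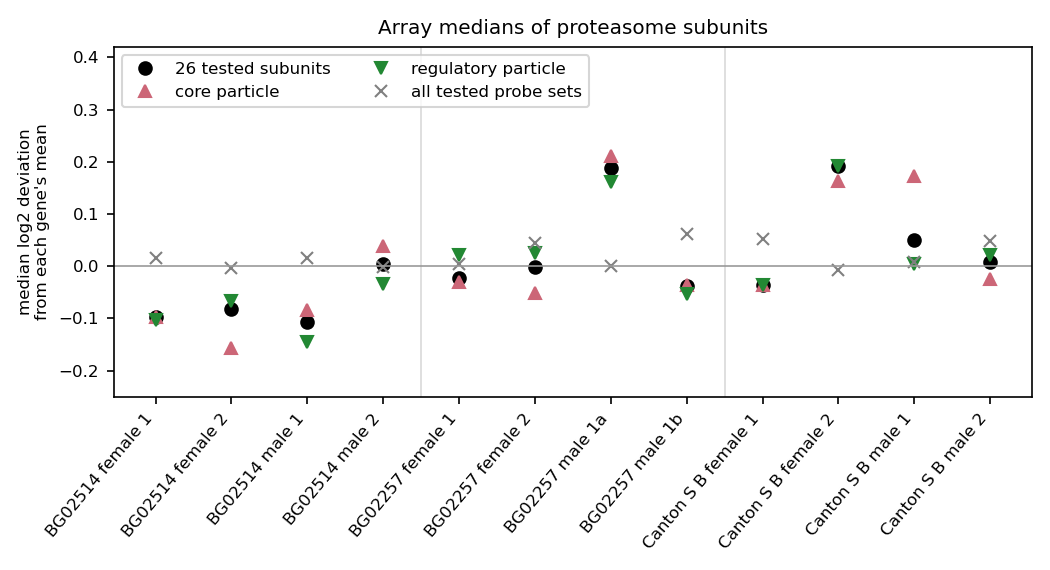
Median log2 deviation from each gene's mean on the 12 arrays (vertical axis), for the 26 tested subunits, the core particle, the regulatory particle and all 8380 tested probe sets. The subunit median reaches 0.19 on BG02257 male 1a and on Canton S B female 2. The median of all tested probe sets lies between -0.01 (Canton S B female 2) and 0.06 (BG02257 male 1b).

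The 13 untested paralogs had mean Signals of 5.38 to 115. Control probe sets for genes of other organisms, 23 in number, had mean Signals of 4.86 to 59.5, and 10 of the 13 paralogs were at or below that highest value. For most of these genes the values cannot be told from background. Prosalpha3T, a testis paralog of the alpha subunit Prosalpha3, had Signals in female heads (lowest 9.60, median 16.7, highest 30.1) and male heads (lowest 30.2, median 47.6, highest 65.2). It was the single paralog without overlap between the sexes, but its mean lay within the range of the foreign controls, so this is a description of low values only. The share of untested probe sets without such overlap was not counted. Prosbeta2R2, a paralog of the trypsin-like subunit, had Signals in female heads (lowest 17.1, median 27.5, highest 83.9) and male heads (lowest 25.5, median 113, highest 197). Prosalpha6T, a paralog of Prosalpha6, had Signals in female heads (lowest 2.60, median 15.6, highest 34.1) and male heads (lowest 16.5, median 34.1, highest 77.6). Other paralogs had the higher median in females. These were Prosbeta2R1 (22.0 in females and 12.1 in males), Rpt3R (33.8 and 23.0), Prosbeta4R2 (7.35 and 2.75) and Rpn12R (19.8 and 11.2). Like Prosalpha6T, they had means within the range of the foreign controls. Rpn13R, the brightest of the 13, had Signals in female heads (lowest 47.5, median 119, highest 178) and male heads (lowest 45.7, median 123, highest 165), with wide overlap.

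Without the limit on low Signals, 13966 probe sets were tested and 145 called between the sexes, of which 0 were members. In that limma fit 5 of the 13 paralogs were on the higher and 8 on the lower side in females. For the 3 paralogs with a mean above that of every foreign control, the log2 difference of females minus males was -1.63 ± 0.51 for Prosbeta2R2 (SE, n = 6 arrays of each sex, adjusted p = 0.195). It was -0.73 ± 0.40 for Rpt4R (limma adjusted p = 0.518) and -0.09 ± 0.40 for Rpn13R (limma adjusted p = 0.958). No log2 difference is given for the 10 others, whose means lay within the range of the controls. Markers of testis and accessory gland were measured on the same arrays. Of 12 listed genes 11 were on the array and 4 passed the limit, with a summed Signal of 702 to 1635 on female and 1144 to 1550 on male arrays. Of the 11 listed markers of the accessory gland, the male gland that makes seminal proteins, 9 were on the array and 1 passed the limit, with sums of 193 to 322 on female and 200 to 426 on male arrays. Apart from SP, at a mean Signal of 162, the accessory gland markers had means of at most 33.8, below the highest foreign control mean of 59.5. The part of testis or accessory gland tissue in the paralog values was not tested.

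**Figure D5:**
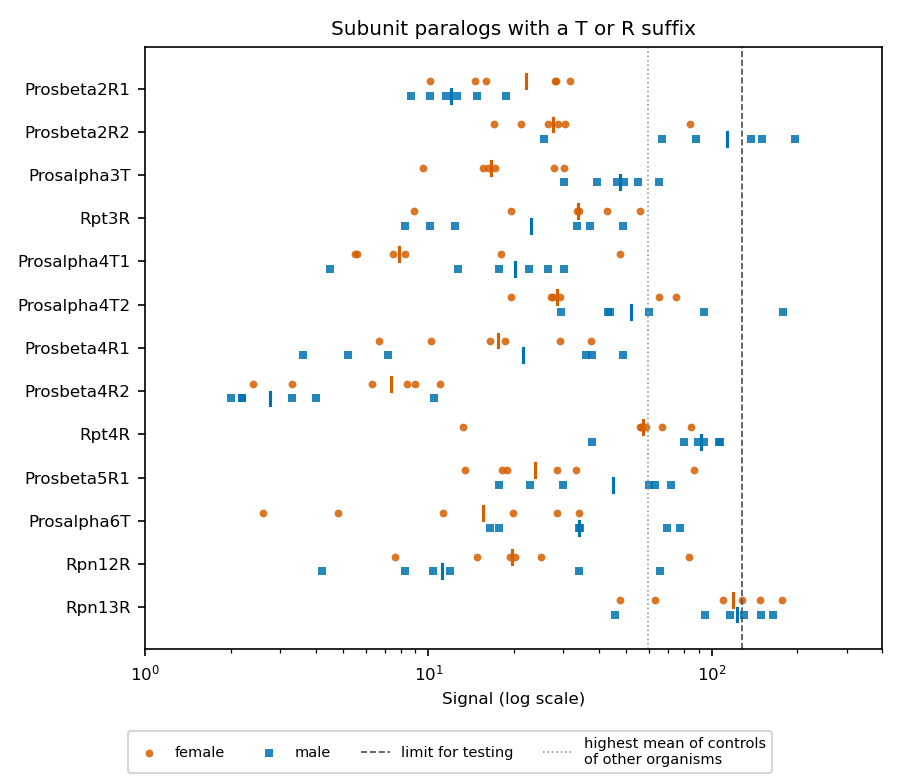
Signal of the 13 subunit paralogs on each array, on a log axis, with female arrays as circles above and male arrays as squares below; short bars mark the median of each sex. The dashed line is the limit for testing, a mean Signal of 128.2, and the dotted line is the highest mean of the control probe sets of other organisms, 59.5. Prosalpha3T is the single paralog whose sexes do not overlap, at a mean below the dotted line. The share of untested probe sets without such overlap was not counted.

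Other genes of the pathway were read from 8 lists, with 91 tested genes in all. The lid subunit Sem1, listed under its own symbol, had log2 differences of -0.06 between females and males, -0.14 for BG02514 minus Canton S B, -0.02 for BG02257 minus Canton S B and -0.12 for BG02514 minus BG02257. Of 5 tested genes for assembly and regulation (Pomp, an assembly chaperone, PI31, REG, an activator cap, and the proteasome-bound deubiquitinases Usp14 and Uch-L5), none passed the threshold in any of the 4 comparisons, and all 5 were on the lower side in BG02514 relative to Canton S B. No gene passed the limma threshold in these 4 comparisons among 12 genes for substrate delivery, 12 cullin ligase subunits and 21 members of the lid-related COP9 and eIF3 complexes. The same held for 18 genes listed with the deubiquitinases (Prp8 among them) and 9 listed with the stress regulators of proteasome genes (ref(2)P among them). These list names are headings and do not give the activity of every gene listed.

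Between the sexes, 2.84% of all tested probe sets were called (164 higher and 74 lower in females). The list of ubiquitin genes, ubiquitin-like genes and activating or conjugating enzymes had 2 of 13 genes past the threshold, both higher in females. These were RpS27A (log2 difference 0.60 ± 0.11 SE, limma adjusted p = 0.0135) and RpL40 (log2 difference 0.34, limma adjusted p = 0.0424), each of which encodes ubiquitin fused to a ribosomal protein. The ubiquitin genes Ubi-p5E (0.06, limma adjusted p = 0.733) and Ubi-p63E (0.12, limma adjusted p = 0.493) did not pass it. No gene of that list passed the threshold between lines. Over all lists, 2 of 91 genes passed the threshold between the sexes. The median difference of females minus males over these lists was 0.01, with 39 of 91 genes on the lower side. For BG02514 minus Canton S B it was -0.05, with 60 of 91 on the lower side.

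The genes at the ends of these lists did not pass the threshold, apart from RpS27A. Between the sexes the others were Roc2, a RING subunit of cullin ligases (-0.50), CSN6 of the COP9 signalosome (-0.48) and the transcription factor foxo (0.57). For BG02514 minus Canton S B they were CSN6 (-0.95), CSN7 (-0.86, limma adjusted p = 0.0702), Cul4 (0.23) and the deubiquitinase Usp12-46 (0.36). For BG02257 minus Canton S B they were the transcription factor Atf3 (-1.02), Usp16-45 (-0.54), CSN6 (0.45) and Usp47 (0.51). For BG02514 minus BG02257 they were CSN6 (-1.40), Uch-L5 (-0.69), Usp16-45 (0.56) and Atf3 (1.22).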

How the data were processed

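RNA from heads was hybridised to 12 Affymetrix arrays, 2 for each of 3 lines and 2 sexes. The authors deposited linear Signal intensities, made with the Signal metric of the Affymetrix Microarray Suite per the labels, and the submitters' processing notes name GCOS. The sources used here give no background settings, detection calls or genome build, and the number of arrays limits the precision. Gene symbols come from GEO's platform annotation; of 13966 probe sets other than controls, 12443 had 1 symbol, 327 several and 1196 none. One further probe set with several symbols fitted the member rule and was left out. The dimmer second probe sets of Prosalpha7 and Prosbeta6, with mean Signals of 17.2 and 42.5, were not tested.

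Arrays were scaled to a common trimmed mean (2% of each tail, 500.1 on every array as deposited), which assumes a like mean on all arrays. The 8380 probe sets at or above the 40th percentile of mean Signal (128.2) were taken to log2 without a pseudocount and fitted with limma 3.58.1 in R 4.3.3 (6 group means, trended variance), tested on simulated data. Calls used a Benjamini-Hochberg adjusted p under 0.05 over all of them. Per the labels, replicates are separate pools of heads, which stays unsettled for the BG02257 males, and p-values measure the spread between these samples. Their Spearman correlation was 0.942 to 0.964. Replicate numbers were not used to pair samples in the main fit. Same-numbered arrays' deviations correlated between -0.236 and 0.269 over 10 pairs of groups, 1 of them over 0.1. With 2 arrays a group, these values cannot exclude that equal numbers were handled together. With replicate number as a block, limma called 172 probe sets between the sexes, against 238 in the main fit, and 0 members in either.

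Array-level values were given for the 3 highest and 3 lowest members of each comparison and for catalytic subunits, and pathway genes were named if called or if among the 2 extremes in either direction. The members and lists were chosen with earlier results of these data known. Alternatives covered scaling, filter, pseudocount, variance trend, test, replicate block, probe-set averaging and single arrays.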

Additional observations from a re-analysis of the deposited data

Results flagged for a closer look

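Of 75 checks for a single array far from the rest of its group, 4 met the criterion, and chance alone gives about 1 in 20. Prosbeta2, the trypsin-like core subunit, had a Signal of 3058 on Canton S B female 2, with the other Canton S B arrays at 2518 to 2582. Rpt3, an ATPase of the base, had a Signal of 974 on BG02257 female 2, with the other BG02257 arrays at 800.6 to 826.

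The other results concern the median log2 deviation of the 26 tested subunits. It was 0.19 on Canton S B female 2, with the other female arrays between -0.10 and 0.00. It was 0.19 on BG02257 male 1a, with the other BG02257 arrays between -0.04 and 0.00. No cause was tested for any of these values.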

How the results depend on the processing

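The count of members called between females and males was 0 in the fit reported and 1, Prosbeta3 in each case, with the filter at the median Signal, with a pseudocount of 16 and with the mean of all probe sets of a gene, where 25 members were tested. Leaving out 1 array gave 0 to 1. The count was 0 in the replicate block fit, which treats equal replicate numbers as a block, for every comparison. No call between lines and no line dependence of the sex difference appeared under any alternative run for that comparison. No called value changed sign, and 7 of 522 values of named members changed sign while not called. The medians over the members moved by less than their within-group spread of 0.0993 (SD of array medians) under all settings that gave one. That spread is larger than the medians of females minus males (-0.04) and of BG02257 minus Canton S B (-0.05), so their direction is not settled. Females minus males gave 0.02 without Canton S B female 1. BG02257 minus Canton S B gave 0.03 without Canton S B female 2. The analysis of variance on linear Signal gave calls only, and no log2 differences. With 2 arrays a group, the size of a difference is known only to within the width of its 95% interval. Signals near the foreign controls have no order.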
